A study of Homo sapiens with 19 samples.

Results

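The 10 genes of fatty acid synthesis and desaturation described here were followed across human liver organoids of 9 groups: SCD, FASN, ACACA, ACLY, ELOVL6, SREBF1, FADS1, FADS2, ME1 and MLXIPL. All 10 were matched by Ensembl identifier, out of 32703 gene identifiers listed in all 19 libraries, and all 10 passed the filter on low counts in both fits. The organoids were derived from W01, an established wild-type human pluripotent stem cell line, and were dissociated for single-cell RNA sequencing with the 10x Genomics 3′ chemistry. Untreated organoids in ultra-low attachment (ULA) plates were taken on day 21 (n = 3 libraries) and day 34 (n = 2). Organoids on an orbital shaker were taken on day 25 in 7 groups of 2 libraries: untreated, TGFB1 (transforming growth factor β1, 10 ng/ml) and its control, PA (500 µM) and its control, and OA (500 µM) and its control. Treatment lasted 5 days after 20 days of culture. Organoids on the shaker and those of day 34 had an additional wash and a longer digestion, per the protocol. That OA followed this schedule is taken from its day 25 titles, since the protocol names TGFB1 and PA alone. The labels do not spell out PA and OA, which in work on fatty liver usually stand for palmitic and oleic acid, and they do not say what the control organoids received. Each treatment had controls of its own. Nothing in the labels says that libraries of a group came from separate differentiations, so the p-values measure the spread between these libraries, which may be technical.

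A liver cell makes fatty acids from citrate: ACLY splits it to acetyl-CoA, ACACA carboxylates this to malonyl-CoA, and FASN builds palmitate with NADPH, part of which ME1 supplies. ELOVL6 lengthens palmitate to stearate, SCD turns saturated acyl-CoAs into monounsaturated ones, and FADS2 and FADS1 desaturate dietary polyunsaturated acids further. SREBF1 encodes the SREBP-1 transcription factors, whose processing responds to sterols, insulin and polyunsaturated fatty acids, and MLXIPL encodes ChREBP, which responds to glucose metabolites.

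The bases upstream of the RefSeq start are shown for SCD, ELOVL6 and ME1, the members whose OA libraries were furthest above their controls. They are written 5′ to 3′ on the gene's strand (RefSeq, GRCh38.p14), and stretches annotated as UTR are left out. Capitals mark matches, on either strand, to a sterol response core (CACNCCAC), a CCAAT box, an antioxidant response core (TGACNNNGC) or a GC box (GGGCGG).
SCD, chr10:100346983-100347232, plus strand: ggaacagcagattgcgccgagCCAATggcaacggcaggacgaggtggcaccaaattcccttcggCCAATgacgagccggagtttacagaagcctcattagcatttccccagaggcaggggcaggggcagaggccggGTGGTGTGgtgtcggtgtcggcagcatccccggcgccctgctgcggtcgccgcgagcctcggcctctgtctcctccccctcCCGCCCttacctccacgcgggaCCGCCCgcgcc
ELOVL6, chr4:110198654-110198841, minus strand: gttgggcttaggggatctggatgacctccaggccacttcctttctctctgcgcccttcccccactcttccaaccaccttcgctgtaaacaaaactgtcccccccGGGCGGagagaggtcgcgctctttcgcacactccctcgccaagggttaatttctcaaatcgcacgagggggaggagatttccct
ME1, chr6:83431052-83431301, minus strand: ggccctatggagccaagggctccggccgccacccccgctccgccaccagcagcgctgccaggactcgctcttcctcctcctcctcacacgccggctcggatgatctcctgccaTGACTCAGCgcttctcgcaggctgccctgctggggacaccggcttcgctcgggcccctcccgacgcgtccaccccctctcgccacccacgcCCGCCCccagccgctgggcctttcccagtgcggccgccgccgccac

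Over windows of 250 bases, 9 of the 10 members had an entry, and FASN had none. A sterol response core was found in 1 of these 9 (SCD) and in 4.72% of 27305 promoters of the same length, and an antioxidant response core in 1 of 9 (ME1) and in 11% of all. CCAAT boxes were found in 2 of 9 (SCD and ACLY; 33.0% of all), GC boxes in 8 of 9 (every one but FADS2; 42.3% of all) and E-boxes, spelled CACGTG, in 0 of 9 (6.49% of all). All 5 motifs were searched on both strands, and matches may overlap. A match describes these letters and says nothing of binding.

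Levels are given as CPM, the UMIs (unique transcript molecules) of a gene scaled to the UMIs of the kept cells of its library. The scaling of libraries takes the 32703 identifiers listed in all 19 libraries, and that within clusters takes all UMIs of the cluster's cells. A cell entered if it had 500 genes or more and no more than 20% of its UMIs in mitochondrial genes, which left 3089 to 12427 cells per library with 6880807 to 91184130 UMIs. The lowest number of UMIs behind a member's value was 22, for MLXIPL. No pair of libraries shared more than 32 cell barcodes. The OA libraries stood apart in their makeup. A cluster led by gut epithelial genes such as APOA4, FABP2 and KRT20 held 49% and 37% of their cells, against 0.18% and 0.42% in the OA control, an unnamed cluster 4, led by OLFM4 and PSCA, held 18.6% and 41.5% against 0.623% and 0.517%, and clusters led by mesenchymal genes held 0.874% and 0.558%, against 29.3% and 29.8%. Cycling-like cells were 4.69% and 4.78% of OA cells against 11.8% and 11.1%, and the cycling markers summed to 156 and 166 CPM against 471 and 508 CPM. The 10 gut epithelial markers summed to 5291 and 6767 CPM with OA and to 441 and 659 CPM in its control, and the 14 hepatocyte markers to 24259 and 25134 CPM against 9087 and 12583 CPM. The share of hepatocyte-like cells did not follow the hepatocyte sums, at 4.14% and 0.434% of OA cells against 2.57% and 3.42% in the control. ALB, the defining liver product, stood at 301 and 687 CPM with OA, between 7.29 and 88.8 CPM in the other PA, OA and untreated shaker libraries, and at no more than 5.49 CPM in the ULA and TGFB1 experiments, where this defining liver marker was close to absent. From sums over a library, fewer cells of a type and less RNA per cell cannot be told apart.

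**Figure D1:**
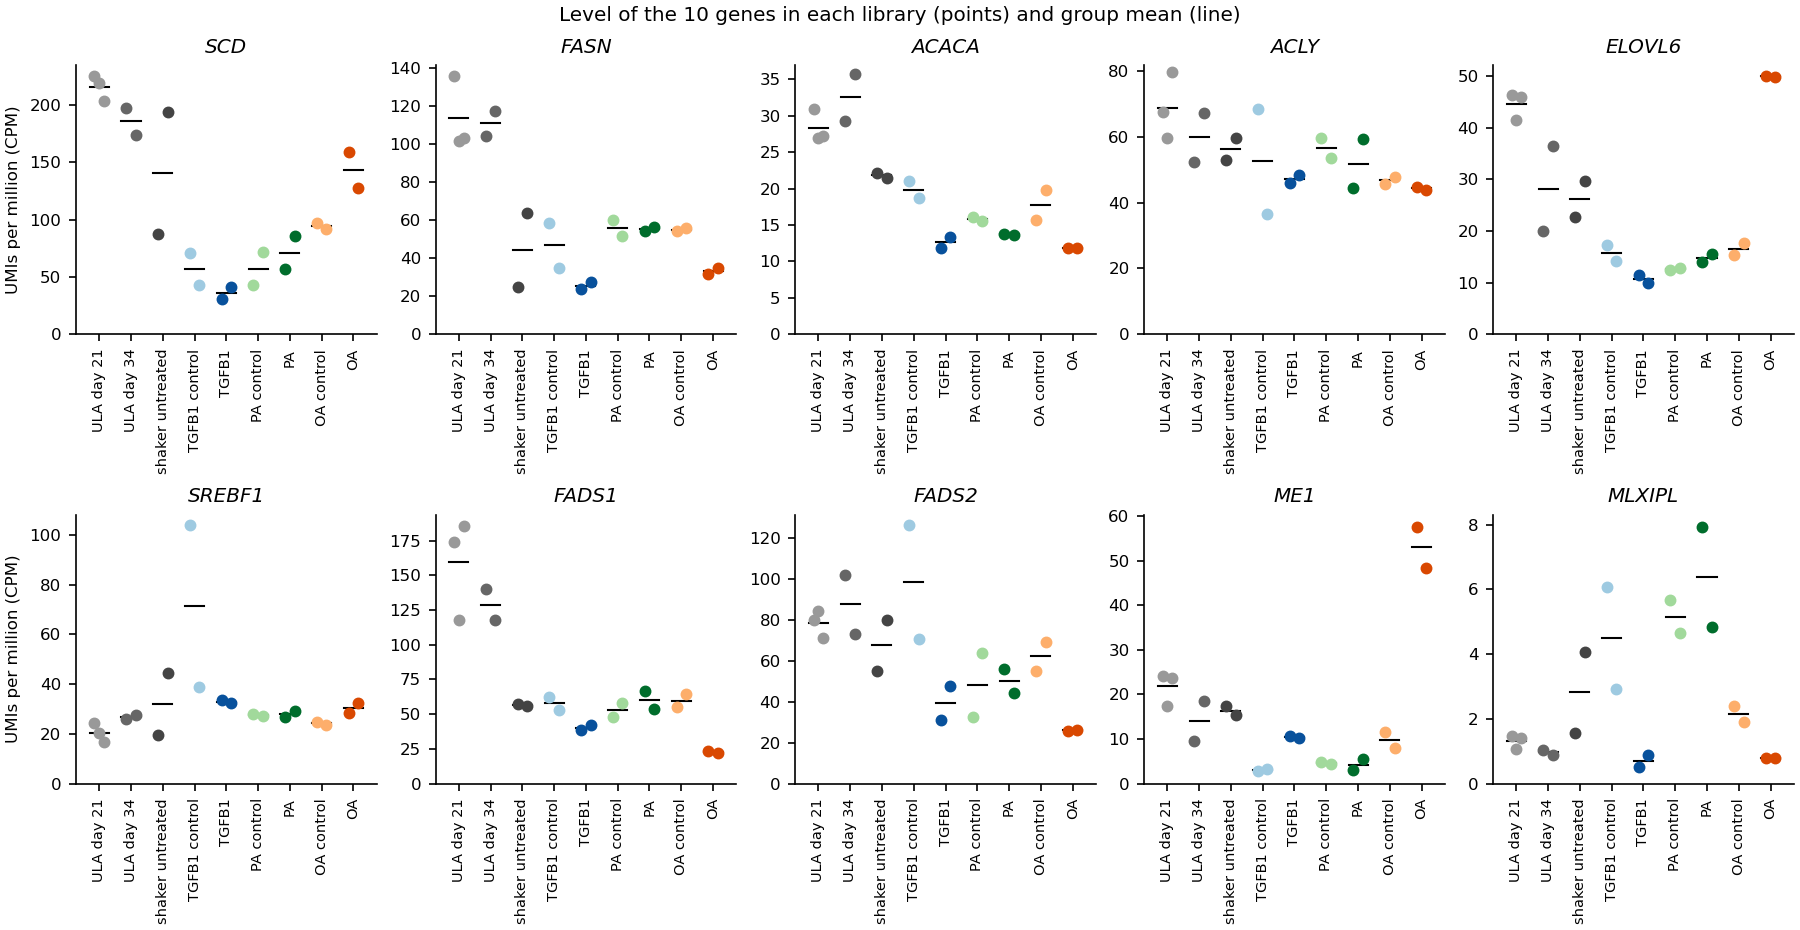
CPM of each of the 10 genes (y axis, from 0) in every library (points) of the 9 groups (x axis), with the group mean as a line. ELOVL6 and ME1 reach 50 and 53 CPM on average with OA, above every other shaker library, while FADS1 and FADS2 are lowest there.

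The members had their own orders over the groups. SCD was highest in ULA organoids of day 21, at 203 to 225 CPM, and lowest with TGFB1, at 31.1 and 41.4 CPM. On day 34 it was at 174 and 198 CPM in ULA organoids, and 1 untreated shaker library, at 194 CPM, lay between these values. FADS1 and FASN had their highest levels in ULA organoids too, with day 21 means of 159 ± 36.1 and 114 ± 19.3 CPM (SD, n = 3). ELOVL6 and ME1 were highest with OA. By group mean, MLXIPL was highest with PA and then in the PA control, and SREBF1 and FADS2 in the TGFB1 control, without separation from other groups. MLXIPL reached 6.07 CPM in a TGFB1 control library, against 4.83 CPM in 1 PA library. SREBF1 was at 38.7 CPM in 1 TGFB1 control library, below 44.6 CPM in an untreated shaker library. FADS2 was at 70.6 CPM in 1 TGFB1 control library, below the lowest ULA library (71.3 CPM). ACLY, with a 2.18-fold range from the lowest to the highest library, varied least, and ME1, with a 20.7-fold range, varied most. Of the 8 steps between neighbouring groups in each order, 3 (ELOVL6) to 7 (ACLY and FADS2) joined groups whose libraries overlapped. Most middle places in these orders, and some first places, were therefore not separated. Groups that were not neighbours could overlap as well. ULA and shaker matrices listed different genes and were processed apart, so levels across them are a description.

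Some groups held uneven libraries. SCD was at 87.4 CPM in untreated shaker library 1 and at 194 CPM in library 2, a wider gap than between OA and its control. SREBF1 was at 104 and 38.7 CPM in the libraries of the TGFB1 control, and FADS2 at 127 and 70.6 CPM there. TGFB1 control library 1 and PA control library 1 were the shallowest, with medians of 1310 and 1747 UMIs per cell against 5635 and 7058 in their partners. The untreated libraries also differed in makeup, with 5.56% and 39.7% of cells in the unnamed cluster 2 of their experiment. Mesenchymal-like cells were 34.3% and 18.5% of them. The parts of depth and makeup in these gaps were not tested.

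With PA, none of the 10 members passed the test. In the PA control, SCD stood at 42.7 and 71.7 CPM, and with PA at 56.6 and 85.7 CPM. FASN was at 59.9 and 51.7 CPM in the control and at 54.2 and 56.2 CPM with PA. The groups overlapped for both genes, as they did for 8 of the 10 members. ELOVL6 was the 1 member with both PA libraries higher (13.9 and 15.5 against 12.4 and 12.7 CPM) and ACACA the 1 with both lower (13.8 and 13.7 against 16.1 and 15.5 CPM). Values that did not overlap were found for 23% of all genes in this comparison (8.38% higher and 14.7% lower with PA). By edgeR's quasi-likelihood test, 0 members had an adjusted p under 0.05, 0 an unadjusted p under 0.05 (2.79% of all genes had one), and DESeq2 also called 0. Of all 19366 genes tested, 0.0465% were called, 9 genes, all higher.

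The intervals show what the PA comparison could hold. The log2 fold changes of the members ran from -0.14 (ACACA) to 0.38 (MLXIPL and SCD), with a median of 0.09 beside 0.02 over all genes. For ELOVL6, the chain-lengthening enzyme, the change was 0.29 (95% interval -0.14 to 0.71), for FADS1 0.24 (-0.13 to 0.60) and for SCD 0.38 (-0.43 to 1.18). The 95% interval of ME1 was -0.71 to 0.64 around -0.04, and that of FASN -0.73 to 0.80 around 0.04, so these intervals include 0 and changes of either sign up to about that size. The FASN, ACLY, ME1, MLXIPL and FADS2 directions changed sign when 1 library was left out.

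With OA, the members split. The lengthening enzyme ELOVL6 and the malic enzyme ME1 rose, and the polyunsaturated desaturases FADS1 and FADS2 fell, while the core enzymes ACLY, ACACA and FASN did not pass the test. In all, 2 members were called higher and 2 lower, 4 of 10, beside 43.3% of all genes called in this comparison (21.7% higher and 21.6% lower). At an unadjusted p under 0.05 there were 6 of 10 members and 50.6% of all genes. In this fit the share called among the members is therefore near that of all genes. Without the filter on low counts MLXIPL, SCD and SREBF1 were called too. From the OA and OA control libraries alone FASN was called beside these. The shares of all genes called in those fits are not reported here, so their larger member counts cannot be set against a background. For all 10 members the OA libraries lay wholly above (4) or wholly below (6) their controls in CPM, as did 81.3% of all genes (26.9% above and 54.5% below).

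ELOVL6 (ENSG00000170522, chr4:110045846-110199199, minus strand, GRCh38) was at 15.3 and 17.7 CPM in the OA control and at 50.1 and 49.8 CPM with OA. Both OA libraries lay above every other shaker library. Its log2 fold change was 1.94 ± 0.19 (SE, n = 2 a group; edgeR adjusted p = 1e-05). ME1 (ENSG00000065833, chr6:83210402-83431051, minus strand) was at 11.5 and 7.88 CPM in the control and at 57.6 and 48.3 CPM with OA. The next highest shaker value was 17.4 CPM, in an untreated library. The log2 fold change of ME1 was 2.77 ± 0.29 (SE; edgeR adjusted p = 1.5e-05).

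FADS1 (ENSG00000149485, chr11:61799627-61829318, minus strand), the Δ5 desaturase, stood at 55.0 and 64.4 CPM in the control and at 23.4 and 22.1 CPM with OA. FADS2 (ENSG00000134824, chr11:61792980-61867354, plus strand), the Δ6 desaturase, stood at 55.1 and 69.2 CPM and at 25.9 and 26.0 CPM. The OA libraries were the lowest of all 19 for both genes. The log2 fold changes were -1.05 ± 0.17 for FADS1 and -0.91 ± 0.32 for FADS2 (SE; edgeR adjusted p = 0.00032 and 0.034). The call of FADS2 was lost when any 1 of the 4 libraries was left out (adjusted p of 0.0668 to 0.138). The 2 gene models lie on opposite strands and overlap by 29692 bases in the annotation, and the sources used here do not state whether counting used strand, so reads from the shared stretch may not be told apart.

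SCD (ENSG00000099194, chr10:100347233-100364826, plus strand), which makes monounsaturated from saturated acyl-CoAs, was at 97.1 and 92.3 CPM in the control and at 159 and 128 CPM with OA. Both OA libraries were higher, yet the difference missed the threshold, with a log2 fold change of 0.93 ± 0.37 (SE; 95% interval 0.13 to 1.74; edgeR adjusted p = 0.058). DESeq2 called it (adjusted p = 0.0298), as did 3 of the other alternatives. MLXIPL was at 2.39 and 1.91 CPM in the control and 0.80 and 0.79 CPM with OA (log2 fold change -1.11 ± 0.49 SE, edgeR adjusted p = 0.085). SREBF1 was at 24.8 and 23.5 CPM in the control and 28.3 and 32.3 CPM with OA (0.66 ± 0.39, adjusted p = 0.19).

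The first enzymes of the route did not pass the test in the fit to all shaker libraries. FASN was at 54.4 and 55.6 CPM in the control and at 31.7 and 35.0 CPM with OA, with a log2 fold change of -0.39 (95% interval -1.15 to 0.38). ACACA was at 15.7 and 19.8 CPM against 11.8 and 11.9 CPM, with -0.24 (-0.59 to 0.12). ACLY was at 45.6 and 47.9 CPM against 44.9 and 44 CPM, with 0.27 (-0.24 to 0.78), so that its CPM and its fitted change pointed in opposite directions. That reflects the scaling: TMM normalization shifted the median log2 fold change of all genes by 0.34 against library size alone for OA, by 0.27 for the difference of the OA and PA effects, by 0.19 for TGFB1, by 0.14 for the OA control against untreated organoids and by -0.13 for ULA. Scaled by library size, OA gave 2628 higher and 5952 lower genes, against 4197 and 4181 with TMM, and ELOVL6, ME1, FADS1 and FADS2 kept their calls while ACACA (-0.58) and MLXIPL (-1.44) gained one.

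**Figure D2:**
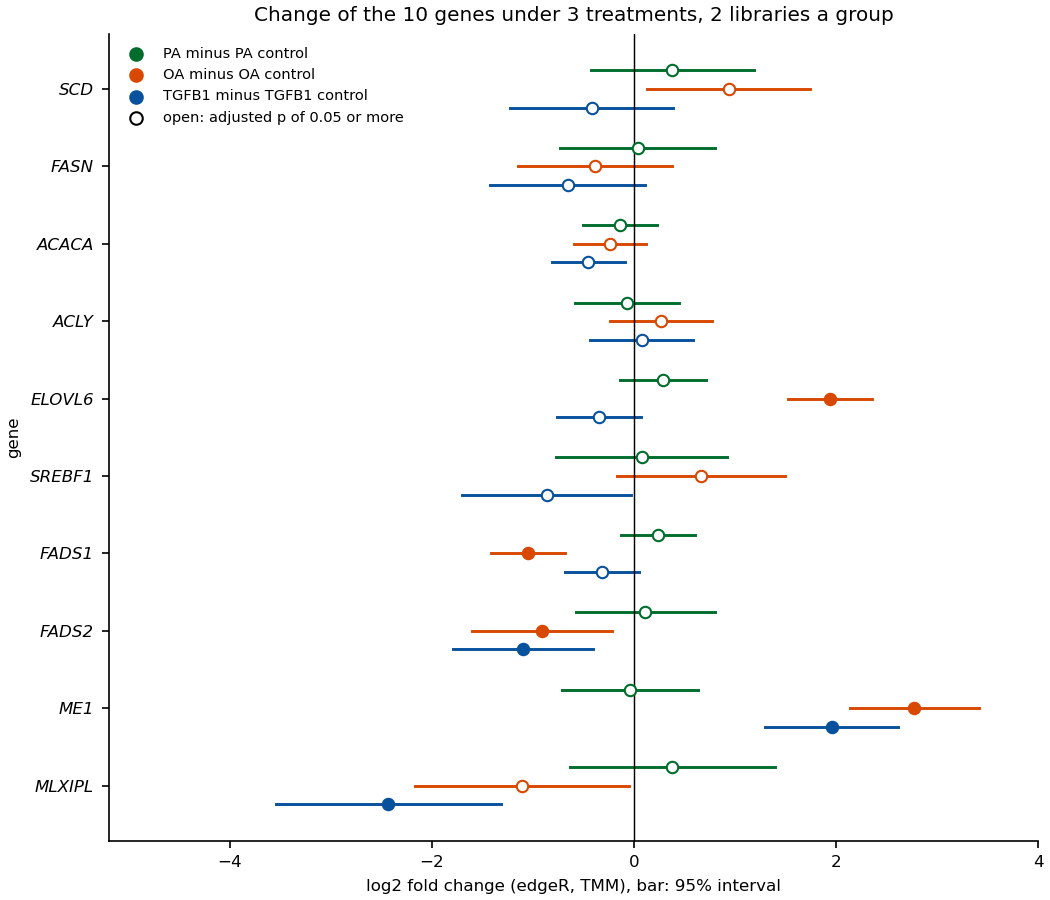
log2 fold change (x axis, edgeR with TMM scaling) of each of the 10 genes (y axis) with PA, OA and TGFB1 against their own controls, 2 libraries a group. Bars are 95% intervals and filled points have an adjusted p under 0.05. ELOVL6 and ME1 lie at 1.94 and 2.77 with OA, and all PA points are open and lie between -0.14 and 0.38.

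Within the 9 clusters that held at least 50 cells in each PA and PA control library, described without a test, 9 of the 10 members overlapped in at least 5, and MLXIPL, higher in 4 and lower in 1, in 4. Over the 19361 genes of the shaker fit present in all matrices, at any level, 91.7% overlapped in at least 5 of these clusters, so the members' overlaps lie close to that background, 12.6% were higher in 3 or more and 4.93% in 4 or more. SCD was higher with PA in 2 of the 9 and lower in 0, beside 30.5% of all genes higher in 2 or more, with 96.5 and 127 CPM against 43.1 and 72.5 CPM in the mesenchymal-like cluster. SREBF1 was higher in 3 and lower in 0. FADS1 was higher in 3 and lower in 1, with 127 and 137 CPM against 94.4 and 100.2 CPM in that cluster. FASN was higher in 1 and lower in 2, ELOVL6 higher in 2 and lower in 1, where 61.6% of all genes were higher and 56.6% lower in at least 1 cluster. ACACA was higher in 1 and lower in 3, beside 12.3% of all genes lower in 3 or more. Some orders rest on few UMIs or narrow gaps. MLXIPL had 0 and 4 control UMIs in cluster 1, and 6.65 and 7.74 CPM against 5.64 and 6.62 CPM in the hepatocyte-like cluster. SCD in PA control library 1 had 0 UMIs in the squamous-like cluster and 16 in the mesenchymal-like cluster.

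The OA and PA effects, at the same labelled dose and day and with no control in common, were compared as a difference of effects. Of the 10 members 3 differed: ELOVL6 by 1.65 ± 0.27, ME1 by 2.81 ± 0.42 and FADS1 by -1.29 ± 0.24 on the log2 scale (OA effect minus PA effect, SE; edgeR adjusted p = 0.0013, 0.00079 and 0.0027). In this contrast 20.5% of all genes were called (10.2% higher and 10.3% lower, and 34.5% at an unadjusted p under 0.05, beside 5 of 10 members). For SCD the difference was 0.56 (95% interval -0.58 to 1.69) and for FASN -0.42 (-1.50 to 0.66), so both intervals include differences of either sign. MLXIPL and FADS2 differed by -1.49 and -1.02, with adjusted p = 0.14 and 0.13. Without the filter on low counts both were called, and the share of all genes called in that fit is not reported here. The PA and OA experiments also differed in the software version in their headers and in the genes they listed, which cannot be told apart from the compound in this contrast.

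The makeup of the OA libraries moved with these sums, and its part in them was not tested beyond the sums without mesenchymal-like clusters given last. The gut epithelial-like cluster held 63.6% and 59.2% of all UMIs in the OA libraries. It gave 86.0% and 89.6% of their ME1 UMIs, 74.6% and 79.7% of their SCD UMIs and 62.9% and 55.9% of their ELOVL6 UMIs. The unnamed cluster 4 gave 21.4% and 32.0% of their ELOVL6 UMIs and 5.86% and 11.8% of their SCD UMIs. Within the gut epithelial-like cluster ME1 was at 77.8 and 73.0 CPM and SCD at 186 and 171 CPM. Mesenchymal-like clusters, nearly absent with OA, had FADS1 at 93.0 and 92.7 CPM in the control and held 28.6% and 36.9% of its UMIs there, with 16.8% and 25.5% of all UMIs. Cycling-like cells gave 29.7% and 26.5% of the FADS1 UMIs and 26.2% and 20.8% of the FADS2 UMIs in the control, where they held 17.5% and 15.5% of all UMIs, against 3.54% and 4.89% with OA. Within them FADS1 was at 92.5 and 109 CPM in the control and at 53.2 and 52.8 CPM with OA. Summed over the cells outside mesenchymal-like clusters, ELOVL6 (1.85), ME1 (2.55) and FADS1 (-0.88) were called with OA (edgeR adjusted p = 5.3e-05, 5.17e-05 and 0.00263). In that fit FADS2 (-0.81) was not called (edgeR adjusted p = 0.0717), and MLXIPL was (-1.46, adjusted p = 0.0225). The gut epithelial-like cluster and cluster 4 stayed in these sums. The share of all genes called in that fit is not reported here, so its member calls stand without a background.

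In the OA experiment 5 clusters held at least 50 cells in each OA and OA control library, 819 and 568 cells with OA and 3231 and 1550 in the control. Clusters were built with the variable genes of these same cells, so levels within them are a description without a test. ELOVL6 was higher in both OA libraries in 4 of the 5, as were 10.2% of 19361 genes in at least 4. This share and those that follow take genes at any level, so they are not matched to the levels of the members. In cluster 3, led by cell cycle genes such as TOP2A, ELOVL6 was at 58.2 and 64.7 CPM with OA and at 23.0 and 25.9 CPM in the control. In the squamous-like cluster 8 it was at 23.4 and 30.4 against 11.2 and 14.4 CPM. ME1 was higher in 3 of the 5 and lower in 1 (cluster 0, led by RELN and TTYH1, at 3.24 and 2.09 CPM, which rest on 3 UMIs and 1 UMI, against 3.49 and 3.83 CPM). FADS1 and FADS2 were each lower in 4 of the 5, as were 10.4% of all genes in at least 4. Over all genes, 16.4% were higher in 3 or more of the 5, the count of ME1.

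FASN was lower in both OA libraries in 5 of 5 clusters, as were 3.66% of all genes at any level. Its values in cluster 3 were 34.4 and 46 CPM against 81.4 and 85.6 CPM. SCD, higher with OA in the library sums, was lower in 3 of the 5 and overlapped in the other two, and 21.9% of all genes were lower in 3 or more. In cluster 3 it was at 72.5 and 81.0 CPM with OA and at 131 and 138 CPM in the control. In cluster 1, led by hepatocyte genes, which had at least 50 cells in 1 library of each group, SCD was at 287 CPM in OA library 1 and 173 CPM in control library 1. ACLY was higher in 3 and lower in 2 of the 5.

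**Figure D3:**
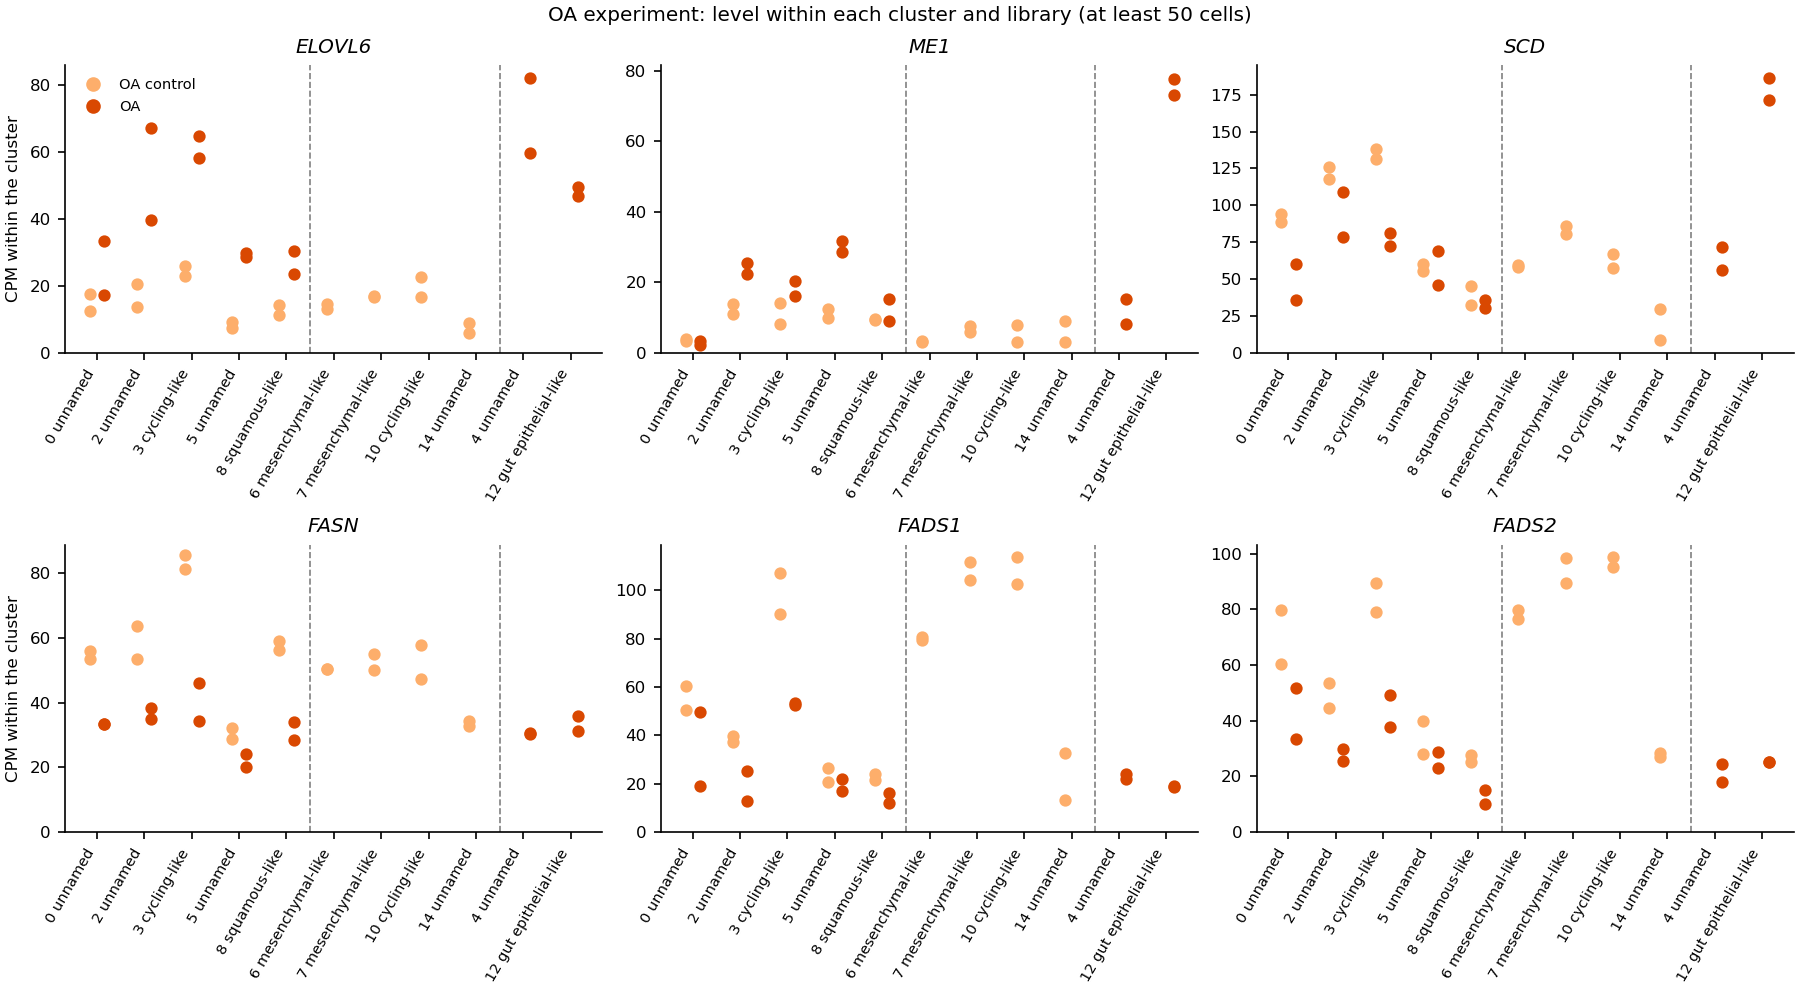
CPM within each cluster (y axis, from 0) of 6 genes in the OA control and OA libraries (points, 1 per library) by cluster (x axis). Left of the first dashed line are the 5 clusters with at least 50 cells in all 4 libraries, then those with that many in both control libraries alone, then those in both OA libraries alone. ELOVL6 is higher with OA in 4 of the 5 shared clusters, and SCD is lower in 3 although its highest points, 171 and 186 CPM, are in the gut epithelial-like cluster of the OA libraries.

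A further 7 lists of the pathway, 65 genes in all, were read from the same fits. With OA, the sterol synthesis and uptake list, whose genes are classic SREBP targets, had 14 of 20 genes higher and 0 lower, with a median log2 fold change of 0.94 beside -0.08 over all genes. The gut epithelial and hepatocyte marker sums given above were higher and the cycling and mesenchymal-like shares lower in the same OA libraries, and their part in the changes of these lists was not tested. CYP51A1, a sterol demethylase, went from 117 ± 2.34 to 479 ± 68.2 CPM (SD, n = 2), a log2 change of 2.37 (edgeR adjusted p under the threshold, as for all genes named here unless said otherwise). HMGCS1 (1.81) and MSMO1 (1.83), also enzymes of that route, rose, as did INSIG1 (1.68), which retains the SREBPs in the endoplasmic reticulum and is itself a target. Of the 11 tested regulators 3 rose, INSIG1, MLX (1.04), the partner of ChREBP, and NR1H3 (1.09), which encodes the sterol receptor LXRα, and 0 fell, a share near the 21.7% of all genes called higher. NR1H3 lost its call without OA library 1 or OA control library 2.

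Enzymes that feed and extend the chain moved both ways with OA, in a comparison with 43.3% of all genes called, so the counts of these short lists alone set none of them apart. IDH1, a source of cytosolic NADPH, rose by 2.21 and ACSS2, which makes acetyl-CoA from acetate, by 1.61, the 2 called genes among the 7 of citrate, acetyl-CoA and NADPH supply. Among the 10 tested elongation and reduction genes 5 rose and 2 fell, with ELOVL7 (2.36) and the dehydratase HACD2 (1.71) at one end and ELOVL4, which makes very long chains, at the other (-3.41; 3.13 ± 1.48 CPM in the control, 0.226 ± 0.006 CPM with OA). In the short list of other desaturases and their electron donors, FADS3 (-1.13) and SCD5 (-1.39), a second stearoyl-CoA desaturase, fell and CYB5A (0.94), the cytochrome that passes electrons to desaturases, rose. The CYB5A call was lost without any 1 of the 4 libraries, and that of SCD5 without OA library 2 or control library 2.

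Among genes that handle an incoming fatty acid, 8 of 11 were called higher and 0 lower with OA, beside 21.7% of all genes called higher. The gut epithelial markers (5291 and 6767 CPM with OA, 441 and 659 CPM in the control) and the gut epithelial-like cluster (49% and 37% of OA cells) moved with these genes, and their part in the calls was not tested. ACSL5, which activates long-chain acids to acyl-CoA, went from 15.2 ± 3.97 to 241 ± 49.1 CPM with OA (log2 change 4.31), and ACSL4 (2.38) and ACSL3 (1.32) rose with it, 3 of 5 synthetases. Of 6 genes of the fatty acid response 5 rose, among them PLIN2, the coat of lipid droplets (171.9 ± 3.01 to 884 ± 48.1 CPM, 2.70), CPT1A (3.46), which admits fatty acids to mitochondria, and PDK4 (2.79). ANGPTL4 was at -0.81 (adjusted p = 0.27). With PA the same genes were at 0.94 (PLIN2), 0.57 (CPT1A), 1.01 (PDK4) and 1.22 (ANGPTL4), with edgeR adjusted p of 0.48 for PDK4 and 1 for the other three, and 0 genes of any of the 7 lists were called (4 at an unadjusted p under 0.05). Without the filter on low counts ANGPTL4 and PDK4 were called with PA (adjusted p = 0.000449 and 0.035). The median of the 6 fatty acid response genes with PA was 0.75, beside 0.02 over all genes.

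**Figure D4:**
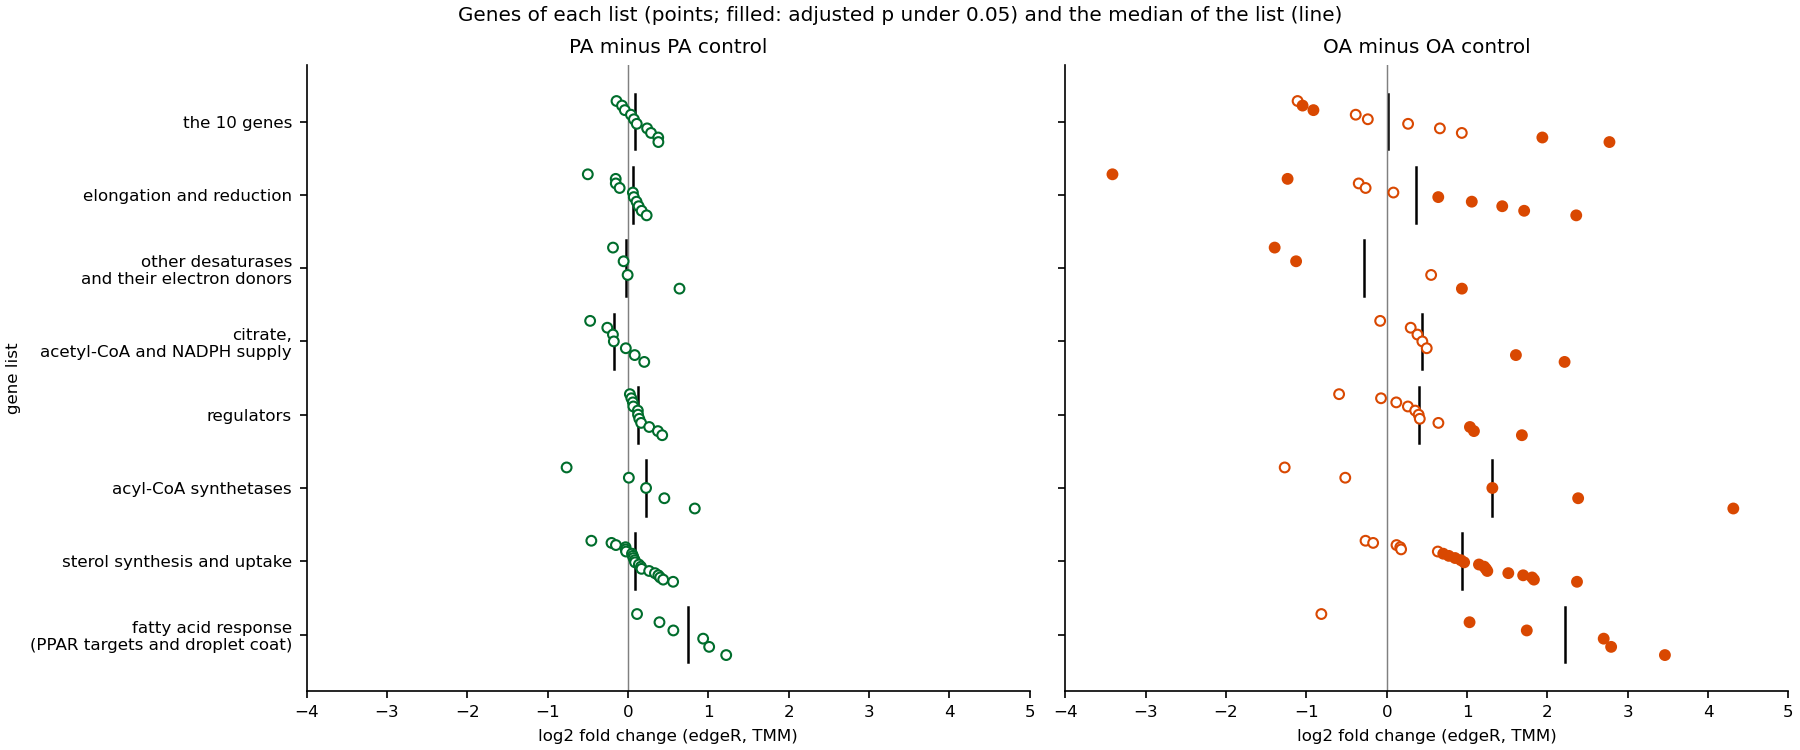
log2 fold change (x axis, edgeR with TMM scaling) of the 10 genes and of the genes of 7 pathway lists (y axis), with PA and with OA against their controls. Each point is a gene, filled where the adjusted p is under 0.05, and the line is the median of the list. With OA, 14 of 20 sterol genes are filled and lie to the right, and with PA no point is filled.

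TGFB1, the fibrogenic cytokine, gave another pattern. ME1 rose again, from 2.78 and 3.25 CPM in the control to 10.7 and 10.2 CPM, and its libraries did not overlap. The log2 fold change was 1.95 ± 0.30 (SE; edgeR adjusted p = 0.00061). MLXIPL fell from 6.07 and 2.91 CPM to 0.50 and 0.89 CPM (-2.43 ± 0.52, adjusted p = 0.0049), and FADS2 from 127 and 70.6 CPM to 31.1 and 47.6 CPM (-1.10 ± 0.32, adjusted p = 0.026). These 3 of 10 members, 1 higher and 2 lower, stand beside 22.2% of all genes called (10.9% higher and 11.3% lower). At an unadjusted p under 0.05 there were 5 of 10 members and 36% of all genes. Non-overlapping CPM, 1 higher and 8 lower, stand beside 65.7% of all genes (23.7% higher and 42% lower).

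The other members lay below their controls with TGFB1 or overlapped them, without a call. SCD was at 70.5 and 42.7 CPM in the control and at 31.1 and 41.4 CPM with TGFB1 (log2 fold change -0.42, adjusted p = 0.44). SREBF1 was at -0.87 (adjusted p = 0.13), FASN at -0.66 (0.2) and ACACA at -0.45 (0.067). Without TGFB1 library 1 the FADS2 and MLXIPL calls were lost (adjusted p = 0.235 and 0.0705), without TGFB1 control library 1 that of FADS2 (0.217), and without TGFB1 control library 2 SREBF1 was called (-1.34, adjusted p = 0.0189). Each of these fits leaves 1 library in a group, which is assumed to vary like the libraries of the other groups. Of the 20 sterol genes 5 fell and 0 rose, beside 11.3% of all genes called lower and 10.9% higher, and SREBF2, which encodes the sterol-directed SREBP, fell by 1.59. SREBF2 lost its call without TGFB1 library 1 or control library 1. A TGFB1 rise of FADS3 (1.58) and of the dehydratase HACD1 (1.27) and a fall of ELOVL2 (-1.92), which lengthens polyunsaturated acids, were called too, HACD1 not without TGFB1 library 1 or control library 1.

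Cell makeup moved with TGFB1 as well, and most cells of the groups lay in different clusters. An unnamed cluster 8, led by KRT7 and MMP7, held 66.9% and 80.9% of TGFB1 cells and 0.676% and 3.27% of control cells, and gave 73.6% and 73.8% of the ME1 UMIs with TGFB1. The control libraries differed from each other too, with 69.6% and 3.03% of cells in cluster 0 and 2.57% and 37.2% in cluster 4. Hepatocyte-like cells were 0.98% and 1.10% of the TGFB1 libraries and 5.05% and 36.8% of the controls, and cycling-like cells 0.55% and 0.23% against 17.2% and 11.9%. The summed hepatocyte markers went the other way, with 5403 and 4572 CPM with TGFB1 and 2724 and 4012 CPM in the control, and the mesenchymal markers stood at 2652 and 2834 against 788 and 869 CPM.

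In the TGFB1 experiment 4 clusters held at least 50 cells in every library, and their levels are a description. ME1 overlapped in 3 of the 4, with 9.40 and 15 CPM against 12.5 and 9.45 CPM in the mesenchymal-like cluster. It was higher in cluster 8 alone, at 10.9 and 9.46 CPM against 6.81 and 7.98 CPM, where the first control value rests on 1 UMI. Over all genes, 47.6% overlapped in 3 or more of the 4 and 47.6% were higher in at least 1, so the counts of ME1 are near the background. FADS2 and FASN were lower with TGFB1 in 4 of 4 clusters, as were 2.46% of 19361 genes at any level. In the hepatocyte-like cluster the TGFB1 values rest on 9 and 8 FASN UMIs and on 4 and 16 FADS2 UMIs. In cluster 4 they rest on 11 and 4 FASN UMIs and on 12 and 12 FADS2 UMIs. In cluster 8, control library 1 had 8 FASN UMIs and 12 FADS2 UMIs. At such counts these orders are thinly based. MLXIPL was lower in 1 and overlapped in 3, beside 56.1% of all genes lower in at least 1. Summed over the cells of the hepatocyte-like cluster, with 59 and 76 cells in the TGFB1 libraries, ME1 was at 0.036 and MLXIPL at -0.38 on the log2 scale. These values rest on 1 ME1 UMI in each TGFB1 library and on 2 UMIs and 1 UMI of MLXIPL, and those of ME1 in cluster 4 on 3 UMIs and 1 UMI, so no change of either gene could be read at this depth. In the hepatocyte-like cluster edgeR called 0 members and 0 genes of any kind (1 member and 1160 genes at an unadjusted p under 0.05). The number of genes tested in that fit is not reported here, so its member count stands without a background. Outside the mesenchymal-like cluster the calls of ME1 (2.11), MLXIPL (-2.37) and FADS2 (-1.27) held, and ACACA and FADS1 were called lower (-0.55 each; adjusted p = 0.0363 and 0.0461). The part of the makeup in these changes was not tested further.

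The OA control was compared with the untreated shaker organoids as a baseline. Their matrices share a software version and listed genes and were clustered together here, but the labels do not say that they came from 1 experiment. No member was called by edgeR's test (1 at an unadjusted p under 0.05, ELOVL6 with a log2 fold change of -0.53) or by DESeq2, where 0.573% of all genes were called (0.0826% higher and 0.491% lower) and 14.6% had an unadjusted p under 0.05. ELOVL6 was at 22.7 and 29.6 CPM in the untreated libraries and ME1 at 17.4 and 15.3 CPM, so both OA control libraries lay below them for both genes, and both OA libraries above. FASN was called higher in the OA control without untreated library 2 (1.36, adjusted p = 0.0414), where the lone untreated library is assumed to vary like the other groups, and was at -0.14 without untreated library 1. Of the 10 members 4 did not overlap, all lower in the OA control, beside 42.2% of all genes (14.4% higher and 27.8% lower).

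In ULA organoids, where day and digestion cannot be told apart, no member was called between day 34 and day 21 (edgeR; 2 at an unadjusted p under 0.05; DESeq2 called ELOVL6 alone), beside 15.6% of 22261 genes (8.43% higher and 7.19% lower, and 32.8% at an unadjusted p under 0.05). CPM did not overlap for 4 of 10 members, 1 higher and 3 lower, and for 52.5% of all genes (32.6% higher and 19.8% lower). ELOVL6 was at 41.5 to 46.4 CPM on day 21 and at 20.0 and 36.4 CPM on day 34, a log2 fold change of -0.78 (95% interval -1.38 to -0.17; adjusted p = 0.085). ME1 was at 17.5 to 24.2 CPM and at 9.52 and 18.4 CPM (-0.76, adjusted p = 0.13). Without day 34 library 2 both were called lower (-1.29 and -1.33; adjusted p = 0.000579 and 0.00135), in a fit where the lone day 34 library is assumed to vary like the day 21 libraries. The day 34 libraries were unlike each other: the unnamed clusters 3 and 9 held 41.2% and 40.1% of the cells of library 1 and 0.113% and 0.0402% of library 2, and a squamous-like class held 0.46% and 38.5%. FASN was at 102 to 136 CPM and at 104 and 118 CPM (-0.15; -0.58 to 0.28). Cycling-like cells were 31.3% to 38.8% of day 21 libraries and 1.34% and 1.05% of day 34 libraries. The cycling markers changed less than these shares, with sums of 1303 to 1562 CPM on day 21 and 656 and 890 CPM on day 34. The hepatocyte markers summed to 2503 to 2856 CPM and to 101 and 874 CPM. Their part in the values of ELOVL6, ME1 and the genes below was not tested. IDH1, by contrast, fell from 189 ± 21.4 to 55.6 ± 17.2 CPM (-1.88), and 3 of the 7 supply genes and 3 of the 20 sterol genes were called lower.

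Over the 14 shaker libraries, the genes whose log2(CPM + 1) was most like that of SCD, among 8736 genes with a mean of at least 10 CPM, were INSIG1 (Pearson r = 0.945), the liver factor CEBPA (0.932), PRR15 (0.920), ANXA10 (0.918) and GIPC2 (0.917). For FASN they were ZNF703 (0.934), EGR1 (0.909), ETV4 (0.904) and the ribosomal protein genes RPL34 (0.901) and RPS28 (0.897). SCD and FASN had no gene in common in these lists. Among the members themselves SCD and ELOVL6 were most alike (r = 0.823), then FASN and MLXIPL (0.811), ELOVL6 and ME1 (0.807) and ACACA and FADS2 (0.797), while FADS1 and ME1 ran most opposite (-0.811). By Spearman rank correlation FADS1 and ME1 were at -0.565, and ME1 and MLXIPL ran most opposite, at -0.776. These values describe 14 libraries that share groups, depth and makeup, and no p is given.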

How the data were processed

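Droplet libraries of 19 organoid samples were deposited as UMI count matrices (raw counts per gene and barcode, whole numbers, no normalization, per the file headers and values). Per the submitters' processing notes, bcl2fastq, Cell Ranger 3.0.2, GRCh38 and Scanpy were used; the headers of the untreated, OA control and OA matrices name Cell Ranger 6.0.2. The deposited barcodes had been filtered by the authors. Listed genes were 58721 (ULA), 33538 (TGFB1 and PA) and 36601 (OA and untreated).

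Counts of kept cells were summed per library. edgeR 4.0.16 (quasi-likelihood test, TMM, filterByExpr, Benjamini-Hochberg over all genes, threshold 0.05) was fitted to the 14 shaker libraries in 7 groups over 32732 shared identifiers (19366 tested) and separately to the 5 ULA libraries (22261 tested). Standard errors and 95% intervals derive from the F statistic and are approximate. DESeq2 1.42.0 was an alternative. The test was tested on simulated data for the OA comparison (18656 genes): 68.75% of 96 genes changed 4-fold and 16.49% of 97 changed 2-fold were recovered, with 6 unchanged genes called. Few genes were changed in that simulation, while 43.3% were called in the real OA comparison, so these rates need not hold there.

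Each experiment was clustered on its own with scanpy 1.11.5 (2000 variable genes, 30 components, 15 neighbours, resolution 0.5). A cluster was named from at least 3 markers among its 50 leading genes and 1 among its top 10, a rule chosen after seeing clusters; the hepatocyte-like clusters of the TGFB1 and PA experiments also held 3 gut epithelial markers each among those 50. Doublets were kept, since Scrublet's automatic call marked nearly none in most libraries; their removal by score was an alternative. Other alternatives were size factors, library size, cell and count filters, subsets of clusters, the replicate block and leaving out libraries. Members and lists were chosen with earlier results of these data known. Genes named beside the members were, per list, up to 3 called genes with the largest change, and PLIN2, PDK4, CPT1A and ANGPTL4. Genes named as leading a cluster were chosen after their values were seen. Some genes selected by the rule per list are not reported here.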

Additional observations from a re-analysis of the deposited data

Results flagged for a closer look

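The OA and PA effects, each against its own control, differed by a test of the difference itself for 3 of the 10 genes. In the same contrast 20.5% of all 19366 genes were called (10.2% higher and 10.3% lower). On the log2 scale, the OA effect minus the PA effect was 1.65 for ELOVL6, 2.81 for ME1 and -1.29 for FADS1 (edgeR adjusted p = 0.0013, 0.00079 and 0.0027). These differences kept their direction and call in every alternative run for that contrast, including without each of the 8 libraries in turn. The gut epithelial-like cluster, with 49% and 37% of OA cells against 0.18% and 0.42% in the OA control, stayed in all these runs. So did the unnamed cluster 4, and the part of cell makeup in these differences was not tested. The groups of 2 or 3 libraries were too small for a check of single libraries that stand far from their group.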

How the results depend on the processing

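The log2 fold changes and calls of ELOVL6, ME1 and FADS1 with OA kept their direction and call in every alternative run. None of these runs left out the gut epithelial-like cluster or the unnamed cluster 4 of the OA experiment. For single genes, alternatives other than leaving out a library gave 856 values on the same side of the threshold, 26 that gained and 29 that lost a call, and 9 of opposite sign; leaving out a library gave 334, 6, 37 and 11. The cause of the changes below was not tested, except that fits to fewer libraries or cells rest on less data. Library size and the crossed block were added after seeing the data. For OA with no filter and from the groups compared alone, the shares of all genes called are not reported here. The same holds for OA minus PA with no filter, so the member counts of these fits stand without a background.

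With PA, 9 genes of all were called, against 51 by DESeq2, 17 by library size, 162 with no filter, 16 from the groups compared alone, 4 with the replicate block, 2 in hepatocyte-like clusters and 0 to 20 without 1 library; the 0 came without either PA control library (514 and 688 at an unadjusted p under 0.05), 20 without PA library 1 and 3 without PA library 2. Opposite signs were ME1 0.023 with all barcodes, SREBF1 -0.0039 in hepatocyte-like clusters and FASN -0.012 by library size. Without 1 library, ACLY ran from -0.30 to 0.13, FADS2 from -0.23 to 0.62, ME1 from -0.57 to 0.32, MLXIPL from -0.0026 to 0.71 and FASN from -0.11 to 0.22.

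With OA, 7 members were called with no filter and 8 from the groups compared alone; ACLY was at -0.0735 by library size; all-gene calls without 1 library ran from 5171 (without control library 2; 5335 without OA library 1) to 6570. For OA minus PA, 5 members were called with no filter, and all-gene calls ran from 2112 (without OA control library 2) to 3388, with 2193 without OA library 1 and 2642 without PA control library 2; scaling by library size gave 1242 higher and 2715 lower, against 1969 and 2002.

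With TGFB1, hepatocyte-like clusters gave 0 member and 0 other calls by edgeR, with 1160 genes at an unadjusted p under 0.05. Signs there were opposite for ACLY (-0.48) and ELOVL6 (0.25). Outside mesenchymal-like clusters 5 members were called, and the share of all genes called in that fit is not reported here. ACLY was at -0.15 by library size. Without 1 library, members called ran from 1 to 4, all-gene calls from 1704 (TGFB1 library 1; 2232 without TGFB1 library 2, 2319 without control library 1) to 5554, ACLY from -0.23 to 0.46 and PLIN2 from -0.0045 to 1.08. Scaling by library size gave 1415 higher and 3065 lower, against 2104 and 2191.

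For the OA control against untreated organoids, 111 calls of all genes became 701 by DESeq2, 255 by library size, 523 with no filter, 194 outside mesenchymal-like clusters, 13 in hepatocyte-like clusters, 28 with a crossed block, 0 from the groups compared alone (2433 at an unadjusted p under 0.05) and 0 with the replicate block (2098). Without 1 library they ran from 0 (either OA control library) to 164, with 20 without untreated library 1, members called from 0 to 1 and FASN from -0.1369 to 1.363. ELOVL6 was at 0.1779 in hepatocyte-like clusters.

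For ULA, DESeq2 called 1 member and no filter 2; members called without 1 library ran from 0 to 2 and all-gene calls from 697 (without day 21 library 3; 773 and 1430 without day 21 libraries 1 and 2) to 7166 (without day 34 library 2). The shares of all genes called for ULA by DESeq2 and with no filter are not reported here. FASN was at 0.0239 with stricter cell filters. Scaling by library size gave 2596 higher and 1304 lower, against 1876 and 1600.

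Libraries of the same number did not deviate together (correlations of 0.089 for PA, 0.041 for OA, -0.22 for TGFB1 and -0.44 for the OA control and untreated pair), so the numbers were not taken as pairs. With 2 libraries a group the deviations mirror each other, so libraries of unlike number correlated at 0.22 for TGFB1 and at 0.44 for the OA control and untreated pair. The main fit holds no such crossed pairs, and the crossed block was run for these comparisons alone. The replicate block gave 0 all-gene calls for ULA (4272 at an unadjusted p under 0.05), and FADS2 was not called with the block for OA (0.0635) or TGFB1 (0.0614), nor IDH1 for ULA (0.0932). Crossing the numbers for TGFB1 gave 2162 higher and 1993 lower. Hepatocyte-like clusters were not run for OA, where OA library 2 had 14 such cells, or for ULA, and cells outside mesenchymal-like clusters not for ULA. Counts per library limit MLXIPL (from 22 UMIs) and ME1 (from 33) most.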
